A study of Mus musculus with 18 samples.

Results

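The genes described here are 10 immediate early genes: Fos, Fosb, Jun, Junb, Jund and Atf3, whose proteins belong to the AP-1 family, the further transcription factors Egr1 and Myc, and the early response genes Ier2 and Ier3. They were taken by name, with earlier results of these data already known, and each gene is represented by its brightest probe. All 10 were measured, out of 17178 genes with a probe, and all 10 were among the 11884 genes bright enough to be tested. The RNA came from whole bone marrow of C3H females, either 1 week or 8 weeks old. At each age the groups were an unirradiated control, 6 h after 2 Gy and 24 h after 2 Gy of gamma rays given at 0.6 Gy per min, with 3 mice in each of the 6 groups and 1 one-colour array per sample. No transgene or other genotype is named in the labels, and all groups are the inbred C3H strain.

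Immediate early genes are switched on within minutes of a signal, without new protein synthesis, because the kinases and factors that act on their promoters are already in the cell. FOS and JUN proteins pair through leucine zippers to form AP-1, which binds the sequence TGANTCA, while ATF proteins and their partners also bind the cyclic AMP response element, TGACGTCA. MYC pairs with MAX and drives genes of ribosome making and growth, and in marrow the AP-1 factors are known for parts in stress responses and in the maturing of monocytes, macrophages and granulocytes.

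Promoter letters are shown for 4 members that went different ways in the results that follow: Fos and Junb, which were high 24 h after irradiation at 8 weeks, Atf3, which was high at 6 h at both ages, and Jun, which did not rise with its relative Junb. Each line holds the 250 bases before the RefSeq start site in assembly GRCm38.p6, read 5′ to 3′ on the gene's strand, and 7 of the 10 members matched an entry; Egr1, Ier2 and Myc were not used here. Fos lies at chr12:85473640-85473889 on the plus strand. Junb lies at chr8:84978749-84978998, Atf3 at chr1:191183334-191183583 and Jun at chr4:95052223-95052472, all on the minus strand. Capitals mark the half-site of the cyclic AMP response element (TGACGT, or ACGTCA where it reads on the other strand), a variant of the whole element (TGACATCA) and the TATA box (TATAAA).
Fos: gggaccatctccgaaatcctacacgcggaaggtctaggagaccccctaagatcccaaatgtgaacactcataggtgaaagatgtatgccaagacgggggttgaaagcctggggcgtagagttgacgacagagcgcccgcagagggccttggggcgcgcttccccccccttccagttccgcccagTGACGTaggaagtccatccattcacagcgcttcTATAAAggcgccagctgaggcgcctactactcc
Junb: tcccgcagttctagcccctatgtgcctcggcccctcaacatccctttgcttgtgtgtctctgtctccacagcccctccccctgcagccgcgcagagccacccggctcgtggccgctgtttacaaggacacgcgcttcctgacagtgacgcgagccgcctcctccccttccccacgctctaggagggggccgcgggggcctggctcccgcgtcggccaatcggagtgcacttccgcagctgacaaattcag
Atf3: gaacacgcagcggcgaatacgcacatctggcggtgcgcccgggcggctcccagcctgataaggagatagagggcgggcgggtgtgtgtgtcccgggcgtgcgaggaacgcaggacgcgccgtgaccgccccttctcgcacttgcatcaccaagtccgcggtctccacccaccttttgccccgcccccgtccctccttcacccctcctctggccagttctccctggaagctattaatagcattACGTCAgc
Jun: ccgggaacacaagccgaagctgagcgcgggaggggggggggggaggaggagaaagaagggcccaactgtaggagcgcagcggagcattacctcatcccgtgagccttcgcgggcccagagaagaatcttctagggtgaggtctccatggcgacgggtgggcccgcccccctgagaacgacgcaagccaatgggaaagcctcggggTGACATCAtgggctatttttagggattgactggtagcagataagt

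The half-site begins 66 bases before the start in Fos and 8 bases before it in Atf3, the TATA box begins 33 bases before it in Fos, and the variant element begins 45 bases before it in Jun. Of 32841 mouse windows of this length, 6.47% hold the half-site on either strand, 2.93% the variant element and 12.4% the TATA box. The whole AP-1 site TGANTCA (6.75% of windows) and the whole element TGACGTCA (1.55%), which contains the half-site, matched in 0 of the 7 member windows. The CArG box that serum response factor binds (1.47%), the E-box CACGTG that MYC and MAX bind (6.02%), the STAT site TTCNNNGAA (7.02%) and the p53 half-site (7.13%) also matched in 0 of 7. The GC box GGGCGG matched in 5 of 7 (32.7% of all windows), the CCAAT box in 3 (33.9%) and the kappaB site in 3, namely Fos, Fosb and Ier3 (7.25%). Both strands were searched for each motif, and the half-site and the choice of capitals were made after the sequences were seen. No capitals fall in the Junb window, which says only that these letters are not there.

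Between 21020 and 25566 of 41174 probes were well above background on each array, and the 3 arrays per group limit the precision. Within a group, arrays had r = 0.992 to 0.997. The exception was replicate 2 of the 1-week controls (r = 0.978 and 0.98 to the others). Its summed level of 12 skeletal muscle genes was 10.18 on the log2 scale against 3.35 and 4.22 in the other 1-week controls. For 11 cartilage genes it was 8.31 against 1.22 and 1.70. As a check of the irradiation, 11 of 11 tested p53 target genes rose in 3 of the 4 comparisons with controls and 10 of 11 in the fourth, 24 h at 8 weeks. Cdkn1a, the cell cycle inhibitor, was 5.03-fold and 7.82-fold its control level at 6 h at 1 and 8 weeks, and Mdm2, the p53 ubiquitin ligase, 1.94-fold and 1.78-fold. Markers of marrow cells were detected: all 14 erythroid and all 15 late neutrophil genes of the marker lists were well above background, as were 13 of 14 B-cell precursor genes with a probe, on at least 1 array. So were all 12 skeletal muscle and all 11 cartilage genes, so detection alone does not set marrow apart from other tissue. The mice are not tied to array numbers in the labels, so p-values measure the spread between these arrays.

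Values are log2 signal relative to the 75th percentile of the array, so 0 is that percentile and 1 unit is a doubling. Levels are compared between groups within a gene and not between genes, because probes differ in brightness for reasons other than the amount of RNA. A difference is called where the adjusted p from limma, corrected over all 11884 genes, is under 0.05. Because whole marrow was measured, a change in the share of cells that carry a transcript and a change in RNA per cell cannot be told apart. Both times at an age were set against the same 3 control arrays, so those comparisons are given side by side only. The arrays lay on 5 slides that each held several groups, and differences within a slide are given beside the calls.

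At 1 week, 5 of the 10 genes differed from control at 6 h (Atf3, Ier2, Ier3 and Jund higher, Myc lower) and 7 at 24 h (Fos, Fosb, Junb, Ier2 and Ier3 higher, Jun and Myc lower). Of all tested genes, 51.8% were called at 6 h and 36% at 24 h. At 8 weeks, 5 were called at 6 h (Atf3, Egr1, Ier2, Ier3 and Junb) and 7 at 24 h (Fos, Fosb, Junb, Egr1, Atf3, Ier2 and Ier3), where the shares of all genes were 46% and 57.8%. None of those 12 calls at 8 weeks was a fall, where 22.1% and 19.5% of all genes were called lower. The 6 h counts are near the share of all genes. With another background correction (normexp on the median spot signal), the calls were Atf3 and Myc at 6 h at 1 week, 0 at 24 h at 1 week, Atf3 and Ier3 at 6 h at 8 weeks, and Fos, Fosb, Junb, Egr1, Atf3 and Ier3 at 24 h at 8 weeks. Without 1-week control replicate 2, 6 and 7 genes were called at 1 week. The 2 groups did not overlap for 6 of the 10 genes at 6 h and 6 at 24 h at 1 week, and for 7 and 7 at 8 weeks, beside 55.8%, 48.1%, 55.3% and 69.5% of all genes.

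**Figure D1:**
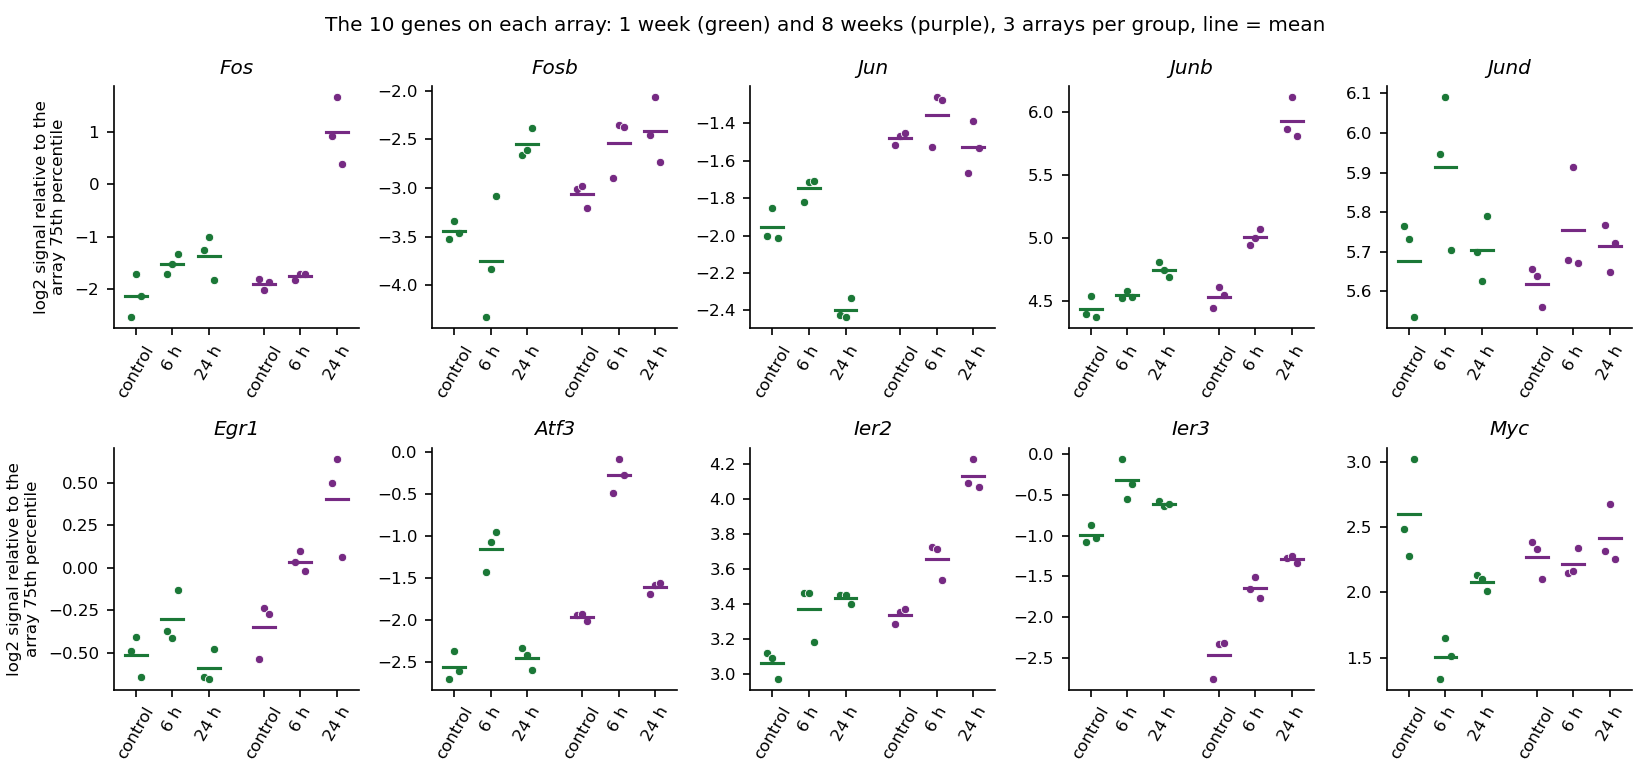
Level of each of the 10 genes on all 18 arrays (log2 signal relative to the array's 75th percentile, a separate scale per gene) by group, with 1 point per array and a line at the group mean, 1 week in green and 8 weeks in purple. Fos and Junb stand apart at 24 h at 8 weeks, Atf3 is high at 6 h at both ages, Myc is low at 6 h at 1 week, and Ier3 is lower at 8 weeks than at 1 week.

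Fos encodes the FOS partner of AP-1. Its level was -2.53, -1.71 and -2.14 in the 1-week controls, -1.71, -1.53 and -1.34 at 6 h and -1.26, -1.01 and -1.82 at 24 h. At 8 weeks it was -1.82, -2.02 and -1.86 in controls, -1.83, -1.70 and -1.71 at 6 h, and 0.93, 1.66 and 0.39 at 24 h. The 3 arrays at 24 h at 8 weeks lay above all other 15 arrays, and every other neighbouring pair of groups in the order of means overlapped. Fos was 2.89 ± 0.26 (SE) log2 units above control at 24 h at 8 weeks, a 7.41-fold difference (adjusted p = 1.44e-07). At 24 h at 1 week it was 0.76 ± 0.26 above control (adjusted p = 0.0314), although the arrays overlapped. That call ended without control replicate 1 or 3 or without 24 h replicate 1 or 2 (adjusted p = 0.0693 to 0.141) and under 4 other settings (adjusted p = 0.0537 to 0.152). At 6 h the difference was 0.60 at 1 week (adjusted p = 0.0641, 0.00345 with slide as a fixed block) and 0.15 at 8 weeks (adjusted p = 0.673). On the slide that held both groups, the 24 h difference at 8 weeks was 2.25, and on the slides that held both at 1 week it was 0.45 and 1.13.

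Fosb encodes a second FOS family partner and gave a dim signal, with arrays well above background in every group except 1 of the 3 at 6 h at 1 week. Its level was -3.52, -3.34 and -3.46 in the 1-week controls, -4.33, -3.83 and -3.08 at 6 h, and -2.66, -2.61 and -2.38 at 24 h. At 8 weeks it was -3.01, -2.98 and -3.20 in controls, -2.90, -2.35 and -2.37 at 6 h, and -2.46, -2.06 and -2.73 at 24 h. The 24 h arrays lay above the controls at both ages. The difference was 0.89 ± 0.25 at 1 week (adjusted p = 0.0108) and 0.64 ± 0.25 at 8 weeks (adjusted p = 0.0367). The call at 8 weeks ended without control replicate 1, 2 or 3 or without 24 h replicate 1 or 2 (adjusted p = 0.0562 to 0.164). It also ended under quantile normalization, with the percentile taken over bright probes and without the filter on dim genes (adjusted p = 0.0553 to 0.0631). The call at 1 week ended under normexp (0.58, adjusted p = 0.392). At 6 h neither age passed the test (-0.31 with adjusted p = 0.317 at 1 week, 0.52 with adjusted p = 0.0991 at 8 weeks). Within slides the 24 h difference was 0.67 and 0.85 at 1 week and 0.47 at 8 weeks. Without 6 h replicate 3 the 1-week 6 h difference was -0.64 (adjusted p = 0.0209).

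Junb encodes a JUN family partner known for restraining the growth of myeloid cells. It was at 4.40, 4.54 and 4.37 in the 1-week controls, 4.53, 4.58 and 4.53 at 6 h, and 4.81, 4.75 and 4.70 at 24 h. At 8 weeks it was at 4.45, 4.62 and 4.55 in controls, 4.95, 5.0 and 5.07 at 6 h, and 5.86, 6.12 and 5.80 at 24 h. At 8 weeks the 3 groups were fully separate and stepped up from control to 6 h to 24 h. The difference from control was 0.47 ± 0.07 at 6 h (1.38-fold, adjusted p = 9.91e-05) and 1.39 ± 0.07 at 24 h (2.62-fold, adjusted p = 2.72e-10). At 1 week it was 0.11 ± 0.07 at 6 h (adjusted p = 0.226) and 0.31 ± 0.07 at 24 h (1.24-fold, adjusted p = 0.00311). Under normexp the calls at 6 h at 8 weeks (0.57, adjusted p = 0.370) and at 24 h at 1 week (0.23, adjusted p = 0.928) ended. The SE there was 0.32, against 0.07 in the main fit. A second Junb probe correlated with the first at r = 0.993 over the 18 arrays and gave 1.41 at 24 h at 8 weeks and 0.26 at 24 h at 1 week. Within slides, the difference at 8 weeks was 0.62 at 6 h and 1.26 at 24 h, and at 1 week it was 0.27 and 0.38 at 24 h.

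Jun, the first JUN family partner, did not follow Junb. It was at -2.00, -1.85 and -2.01 in the 1-week controls, -1.82, -1.71 and -1.71 at 6 h, and -2.43, -2.44 and -2.34 at 24 h. The 8-week values were -1.52, -1.47 and -1.45 in controls, -1.53, -1.26 and -1.27 at 6 h, and -1.67, -1.39 and -1.53 at 24 h. At 1 week all 3 arrays at 24 h lay below all controls, and all 3 at 6 h lay above them. The fall at 24 h was -0.44 ± 0.09 (adjusted p = 0.00165), with -0.57 and -0.42 on the slides that held both groups, and the 6 h value of 0.21 did not pass the test (adjusted p = 0.0752). From 6 h to 24 h at 1 week Jun fell by 0.65 on the log2 scale (adjusted p = 6.65e-05). At 8 weeks neither time differed from control (0.13 with adjusted p = 0.291 at 6 h, -0.05 with adjusted p = 0.683 at 24 h). Among controls it was 0.48 ± 0.09 higher at 8 weeks than at 1 week (adjusted p = 0.000337). Under normexp, where the SE was 0.20, these calls ended. The 24 h difference at 1 week was -0.23 (adjusted p = 0.784), the change from 6 h to 24 h -0.43 (adjusted p = 0.356) and the control difference 0.33 (adjusted p = 0.264).

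Jund, the JUN family member that resting cells keep on, varied least of the 10 genes. The means of its 6 groups spanned 0.30 log2 units, and every neighbouring pair of groups in that order overlapped. Its array values ran from 5.53 to 6.09. The 1 call was 0.24 ± 0.09 above control at 6 h at 1 week (adjusted p = 0.0369), with 5.95, 6.09 and 5.71 against 5.76, 5.73 and 5.53, so the arrays overlapped. It ended without control replicate 3 or 6 h replicate 1 or 2 (adjusted p = 0.0963 to 0.196), and also under 7 other settings. With each array scaled to its median the difference was 0.05 (adjusted p = 0.659).

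Atf3 encodes a stress-induced factor that pairs with JUN proteins and is also a p53 target. It was at -2.70, -2.36 and -2.61 in the 1-week controls, -1.43, -1.08 and -0.95 at 6 h, and -2.33, -2.42 and -2.59 at 24 h. At 8 weeks it was at -1.94, -1.93 and -2.01 in controls, -0.49, -0.08 and -0.28 at 6 h, and -1.69, -1.59 and -1.56 at 24 h. The 6 h arrays lay above all arrays of the other 2 groups of their age. The rise at 6 h was 1.41 ± 0.13 at 1 week (2.65-fold, adjusted p = 3.09e-07) and 1.68 ± 0.13 at 8 weeks (3.20-fold, adjusted p = 6.70e-08), and it was 1.27 and 1.67 within slides. Between 6 h and 24 h Atf3 fell by 1.30 on the log2 scale at 1 week and by 1.33 at 8 weeks (adjusted p = 1.93e-06 and 5.99e-07). At 24 h it was 0.11 above control at 1 week (adjusted p = 0.545) and 0.34 ± 0.13 at 8 weeks (adjusted p = 0.0320). That last call ended without control replicate 1, 2 or 3 or 24 h replicate 2 or 3 (adjusted p = 0.0539 to 0.0864). It also ended with the percentile taken over bright probes (adjusted p = 0.0700) and without the filter on dim genes (adjusted p = 0.05145). Among controls Atf3 was 0.60 ± 0.13 higher at 8 weeks than at 1 week (adjusted p = 0.000697).

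Egr1 encodes a zinc finger factor induced through the ERK pathway and known for a part in macrophage maturation. It was at -0.49, -0.41 and -0.65 in the 1-week controls, -0.37, -0.41 and -0.13 at 6 h, and -0.65, -0.65 and -0.48 at 24 h. The 8-week values were -0.54, -0.24 and -0.27 in controls, 0.03, 0.10 and -0.02 at 6 h, and 0.50, 0.65 and 0.07 at 24 h. At 8 weeks both irradiated groups lay above the controls without overlap, and at 1 week all 3 groups overlapped apart from 6 h and 24 h. The difference at 8 weeks was 0.39 ± 0.13 at 6 h (adjusted p = 0.0200) and 0.75 ± 0.13 at 24 h (1.69-fold, adjusted p = 9.50e-05), with 0.52 and 0.34 within slides. The 6 h call ended without control replicate 1 or 6 h replicate 2 (adjusted p = 0.101 and 0.0657), with slide as a fixed block (adjusted p = 0.0666), under normexp (adjusted p = 0.0684) and with each array scaled to its median (0.30, adjusted p = 0.111). At 1 week the differences were 0.21 and -0.08 (adjusted p = 0.177 and 0.664).

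Ier2, a nuclear early response protein, rose in all 4 comparisons with controls. Its levels were 3.12, 3.09 and 2.97 in the 1-week controls, 3.46, 3.46 and 3.18 at 6 h, and 3.45, 3.45 and 3.40 at 24 h. At 8 weeks they were 3.29, 3.35 and 3.37 in controls, 3.72, 3.71 and 3.54 at 6 h, and 4.09, 4.23 and 4.07 at 24 h. No irradiated array overlapped the controls of its age. The differences were 0.31 ± 0.08 and 0.37 ± 0.08 at 6 h and 24 h at 1 week (adjusted p = 0.00269 and 0.00103). They were 0.32 ± 0.08 and 0.79 ± 0.08 at 8 weeks (adjusted p = 0.00271 and 2.44e-07), the last a 1.73-fold rise. With each array scaled to its median, the 6 h differences were 0.12 at 1 week and 0.24 at 8 weeks and no longer passed (adjusted p = 0.310 and 0.0514). Under normexp, where the SE was 0.28, all 4 calls ended. The values were 0.33 and 0.34 at 6 h and 24 h at 1 week (adjusted p = 0.532 and 0.7395), and 0.26 and 0.32 at 8 weeks (adjusted p = 0.720 and 0.379). Within slides the 24 h difference was 0.69 at 8 weeks and 0.36 and 0.48 at 1 week.

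Ier3, an early response gene that p53 and NF-kB can induce and that is known for a part in cell survival, also rose in all 4. At 1 week its levels were -1.08, -0.87 and -1.03 in controls, -0.05, -0.55 and -0.36 at 6 h, and -0.58, -0.64 and -0.61 at 24 h. At 8 weeks they were -2.76, -2.33 and -2.32 in controls, -1.65, -1.50 and -1.77 at 6 h, and -1.28, -1.25 and -1.34 at 24 h. The 6 groups did not overlap, and all 9 arrays at 8 weeks lay below all 9 at 1 week. The differences from control were 0.67 ± 0.13 at 6 h and 0.38 ± 0.13 at 24 h at 1 week (adjusted p = 0.000329 and 0.0263), and 0.83 ± 0.13 and 1.18 ± 0.13 at 8 weeks (adjusted p = 8.45e-05 and 9.47e-07). The 24 h call at 1 week ended without control replicate 1 or 3 or any of the 24 h replicates 1, 2 and 3 (adjusted p = 0.0524 to 0.0852), and with each array scaled to its median (0.38, adjusted p = 0.0893). Under normexp the 1-week calls at 6 h and 24 h ended (0.50 and 0.30, adjusted p = 0.0998 and 0.556). Within slides the differences were 1.02 at 6 h and 0.30 and 0.39 at 24 h at 1 week, and 1.00 and 0.98 at 6 h and 24 h at 8 weeks. Among controls Ier3 was 1.48 ± 0.13 lower at 8 weeks (2.79-fold, adjusted p = 4.78e-08), and 1.73 lower on the slide that held controls of both ages.

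Myc, the growth-promoting factor, was the one gene called lower at 6 h, and that at 1 week only. It was at 2.48, 2.28 and 3.02 in the 1-week controls, 1.34, 1.65 and 1.52 at 6 h, and 2.14, 2.10 and 2.01 at 24 h. The 8-week values were 2.38, 2.33 and 2.10 in controls, 2.14, 2.16 and 2.34 at 6 h, and 2.32, 2.67 and 2.25 at 24 h. The 3 arrays at 6 h at 1 week lay below all other 15 arrays, while the 3 groups at 8 weeks overlapped. The fall at 6 h at 1 week was -1.09 ± 0.15 (2.13-fold, adjusted p = 1.83e-05), and it was -1.15 on the slide that held both groups. At 24 h at 1 week Myc was still lower, by -0.51 ± 0.15 (adjusted p = 0.0137), but the call ended without control replicate 3 (-0.30, adjusted p = 0.0791) or 24 h replicate 3 (-0.48, adjusted p = 0.0519), and on the slides that held both groups the values were -0.14 and -0.92. At 8 weeks the differences were -0.06 at 6 h (adjusted p = 0.782) and 0.14 at 24 h (adjusted p = 0.436). The other Myc probes gave -0.98 and -0.62 at 6 h at 1 week (adjusted p = 0.000174 and 0.0150), and -0.44 on both at 24 h, neither of which passed (adjusted p = 0.0570 and 0.0989). Under normexp the 24 h difference at 1 week was -0.54 (adjusted p = 0.304). With only the groups compared in the fit the 24 h call also ended (adjusted p = 0.0548).

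**Figure D2:**
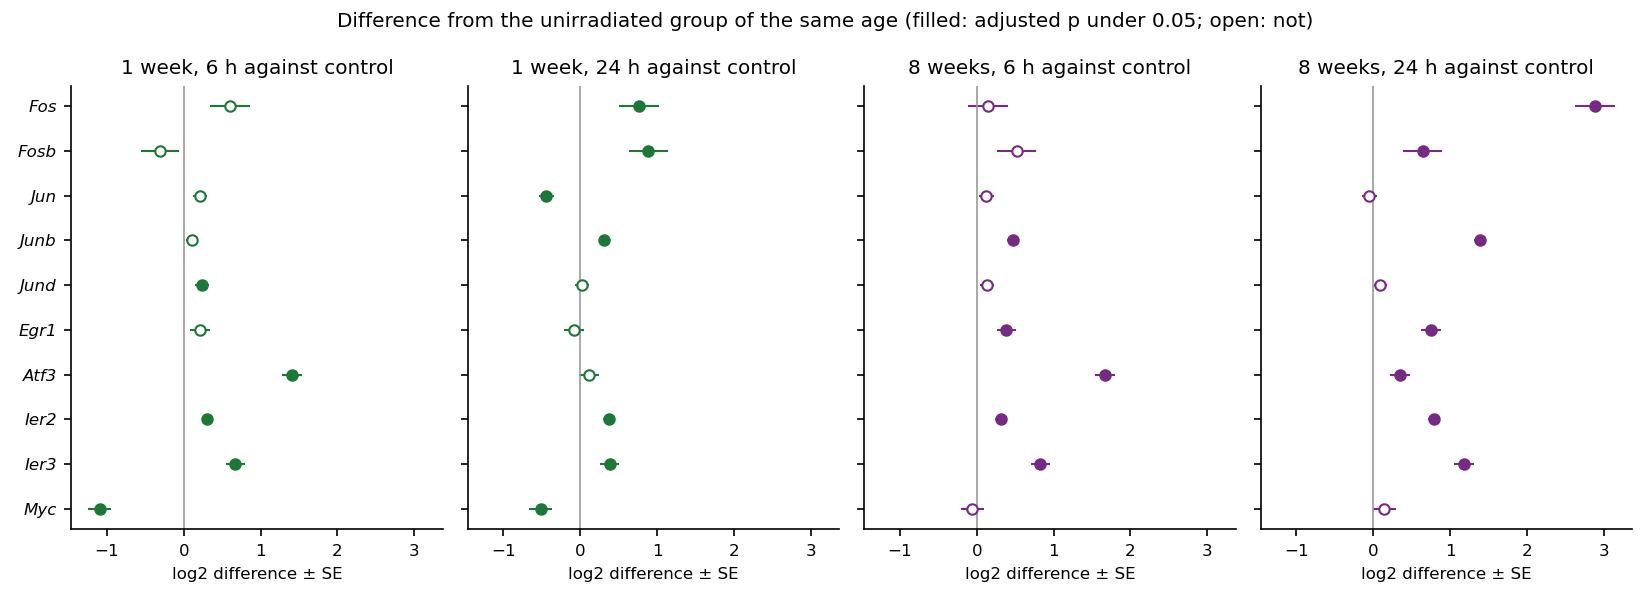
Log2 difference of each gene from the unirradiated group of its age (x axis, point ± SE from the limma fit) in the 4 comparisons, with filled points called and open points not. The point farthest right is Fos at 24 h at 8 weeks at 2.89, and the one farthest left is Myc at 6 h at 1 week at -1.09.

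Did the 2 ages respond differently? The difference of the responses was itself tested. At 24 h, 7 of the 10 genes responded more positively at 8 weeks (Fos, Junb, Egr1, Ier3, Myc, Ier2 and Jun) and 0 less, where 42.1% of all genes were called and 28.5% in that direction. Fos responded 2.13 ± 0.37 log2 units more at 8 weeks (adjusted p = 0.000327), Junb 1.08 ± 0.10 (adjusted p = 2.08e-06), Egr1 0.83 ± 0.18 (adjusted p = 0.00160) and Ier3 0.80 ± 0.18 (adjusted p = 0.00220). For Myc, Ier2 and Jun the values were 0.66, 0.42 and 0.39 (adjusted p = 0.0214, 0.00510 and 0.0266). Under normexp 3 of these calls remained, Fos, Egr1 and Ier3. There Junb was 0.77 (adjusted p = 0.317), Myc 0.33 (adjusted p = 0.573), Ier2 -0.024 (adjusted p = 0.972) and Jun 0.575 (adjusted p = 0.228). The Jun call ended without 1-week control replicate 2, 1-week 24 h replicate 2, 8-week control replicate 1 or 8-week 24 h replicate 2 (adjusted p = 0.0561 to 0.0764). It also ended with the percentile taken over bright probes (adjusted p = 0.0571) and with each array scaled to its median (adjusted p = 0.0552). The Myc call ended without 8-week control replicate 3 or 8-week 24 h replicate 2 (adjusted p = 0.0562 and 0.0637). It also ended on both other probes (adjusted p = 0.119 and 0.0683) and with a gene's probes averaged (adjusted p = 0.0551). Fosb, Atf3 and Jund did not pass (-0.24, 0.23 and 0.07). The median over all tested genes was 0.11.

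At 6 h only Myc and Junb passed the test of the difference, both more positive at 8 weeks, beside 18.6% of all genes called. For Myc it was 1.04 ± 0.21 (adjusted p = 0.00405), a fall at 1 week against no called change at 8 weeks. That call ended on the dimmest Myc probe (0.81, adjusted p = 0.0554) and under normexp (1.03, adjusted p = 0.232). For Junb it was 0.36 ± 0.10 (adjusted p = 0.0238), and that call ended without 1-week control replicate 2, 1-week 6 h replicate 1 or 8-week control replicate 1 (adjusted p = 0.0504 to 0.0640) and with slide as a fixed block (adjusted p = 0.115). Under normexp the Junb value was 0.51 and was not called. The rise of Atf3 at 6 h was 0.27 ± 0.18 larger at 8 weeks and did not pass (adjusted p = 0.323). Among controls, 4 of the 10 genes differed with age, Jun, Atf3 and Ier2 higher at 8 weeks and Ier3 lower, where 64.9% of all genes differed (27.4% were higher and 37.5% lower). Under normexp only Ier3 was called. The control groups did not overlap for 5 of the 10 genes and for 69.9% of all genes. Ier2 was 0.28 ± 0.08 higher (adjusted p = 0.00412).

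**Figure D3:**
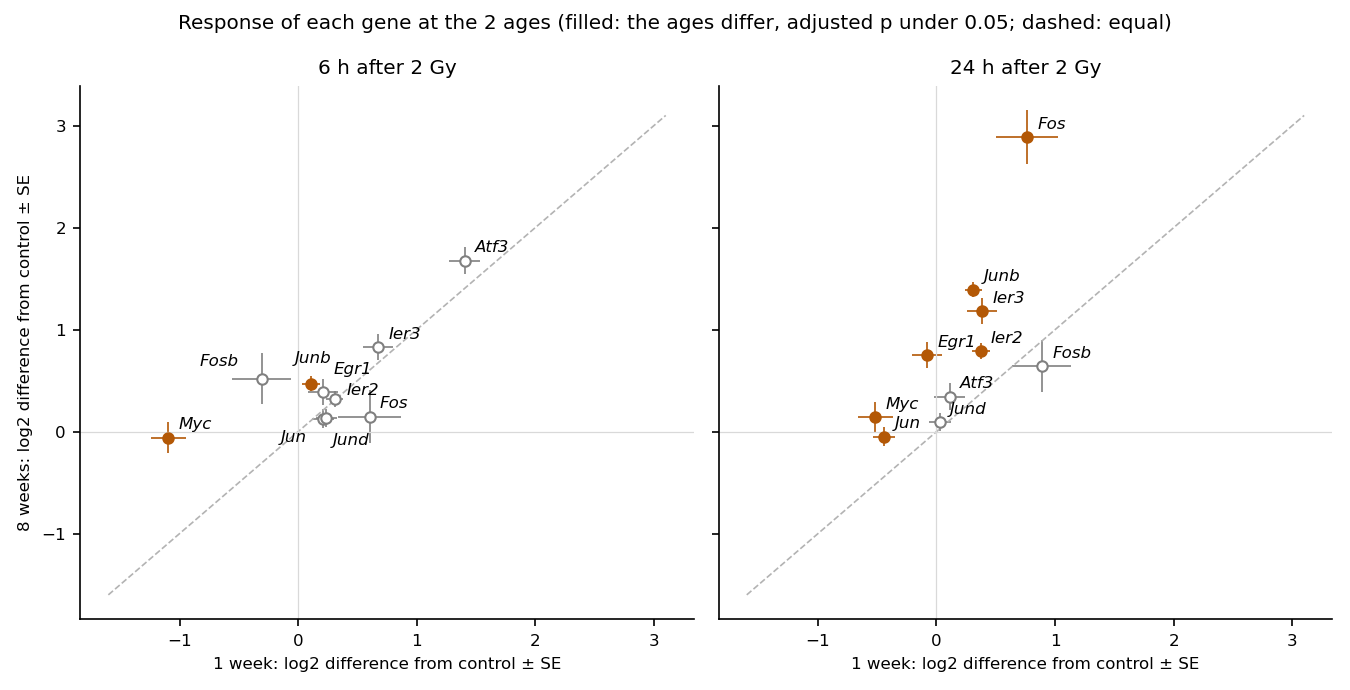
Response of each gene at 8 weeks (y axis) against its response at 1 week (x axis), each as the log2 difference from the control of that age ± SE, at 6 h and at 24 h. Filled points are genes whose responses differ between ages, 2 at 6 h and 7 at 24 h, and the dashed line marks equal responses.

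From 6 h to 24 h, 5 genes changed at 1 week (Fosb, Junb and Myc higher, Jun and Atf3 lower) and 6 at 8 weeks (Fos, Junb, Ier2, Egr1 and Ier3 higher, Atf3 lower), beside 36.2% and 49.4% of all genes. The 6 h and 24 h arrays did not overlap for 7 genes at 1 week and 5 at 8 weeks, beside 49.1% and 57.2% of all genes. Fos rose by 2.74 ± 0.26 in that interval at 8 weeks (adjusted p = 4.86e-07), against 0.16 ± 0.26 at 1 week (adjusted p = 0.672). Junb rose by 0.92 ± 0.07 at 8 weeks (adjusted p = 8.50e-08). Myc rose by 0.58 ± 0.15 at 1 week (adjusted p = 0.00676), which on its dimmest probe was 0.19 (adjusted p = 0.499). The calls of Junb at 1 week (0.20, adjusted p = 0.0379) and of Egr1 and Ier3 at 8 weeks (0.37 and 0.35, adjusted p = 0.0238 and 0.0304) each ended without at least 4 of the single arrays involved. They also ended with the percentile taken over bright probes (adjusted p = 0.06285 to 0.0712) and with slide as a fixed block (adjusted p = 0.0518 to 0.1485).

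Over the 18 arrays the levels of Junb and Ier2 had r = 0.944, those of Fos and Junb r = 0.923 and those of Junb and Egr1 r = 0.853, the 3 highest of 45 pairs, and Jund and Myc had the lowest, r = -0.621. These values mix the differences between groups with the spread within them and are a description only. Junb and Ier2 both lie on mouse chromosome 8 with 17 protein-coding genes between them in RefSeq's assembly. Among 11708 other tested genes, those most like Fos were Mlkl (r = 0.918), the effector of necroptosis, Prodh (0.916), a proline oxidising enzyme, and Ifit2 (0.913), an interferon-induced gene. Those most like Junb were Mpzl1 (0.961), Tmem141 (0.959) and Dbndd2 (0.955), and those most like Atf3 were Ddit4 (0.935), a stress-induced inhibitor of mTOR, Cd55 (0.932), which restrains complement, and Nit1 (0.905). Among those most like Myc were Anp32a (0.924) and Morf4l1 (0.914). Ier2 was most like Myl6 (0.968), Ier3 most like Tshz3 (0.971), Jun most like Gpr162 (0.946), Egr1 most like Slc39a11 (0.924), Fosb most like Olfr360 (0.922), and Jund, the lowest of the 10, most like Tulp1 (0.841).

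The wider AP-1 and bZIP family holds further FOS, ATF, CREB, MAF, BATF and C/EBP proteins. Of its 32 tested genes, 19 rose and 4 fell at 6 h at 1 week, 18 and 2 at 24 h at 1 week, 17 and 3 at 6 h at 8 weeks, and 19 and 6 at 24 h at 8 weeks. Of all tested genes 25.5%, 18.4%, 23.9% and 38.3% rose and 26.3%, 17.6%, 22.1% and 19.5% fell in that order, and these shares stand beside every list count that follows. The list's median differences were 0.28, 0.24, 0.22 and 0.26, beside 0.00, -0.01, 0.02 and 0.12 for all tested genes. Maff, a small MAF protein, rose by 1.28 ± 0.13 and 1.57 ± 0.13 at 6 h at 1 and 8 weeks, and by 2.20 ± 0.13 at 24 h at 8 weeks (4.59-fold, adjusted p = 1.39e-09). Maf, known in resident macrophages, was 1.13 ± 0.08 higher at 24 h at 8 weeks (adjusted p = 1.43e-08) and 0.42 ± 0.08 lower at 6 h at 1 week (adjusted p = 0.000534). Atf5, a stress-response factor, rose by 1.09 ± 0.12 at 6 h at 1 week (adjusted p = 2.74e-06). Creb1, which binds the cyclic AMP response element, fell by 0.62 on the log2 scale at 24 h at 8 weeks (adjusted p = 1.45e-06). With each array scaled to its median, 11 rose and 6 fell at 6 h at 1 week, and 10 rose and 2 fell at 6 h at 8 weeks. Under normexp 7, 2, 3 and 8 rose in the 4 comparisons, and the median at 24 h at 8 weeks was -0.03.

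Other immediate early genes moved both ways. Of 40 tested, 21 rose and 4 fell at 6 h at 1 week, 14 and 5 at 24 h, 19 and 5 at 6 h at 8 weeks, and 20 and 8 at 24 h, where 38.3% of all genes rose and 19.5% fell. Under normexp 8, 1, 5 and 9 rose, and the median at 24 h at 8 weeks was -0.07. Plk2, a p53-induced kinase, rose by 1.05 ± 0.10 and 1.57 ± 0.10 at 6 h at 1 and 8 weeks, and Nr4a1, an orphan nuclear receptor, by 0.76 ± 0.07 at 6 h at 1 week (adjusted p = 1.69e-07). Socs3, the feedback inhibitor of cytokine signalling, rose by 1.27 ± 0.09 at 24 h at 8 weeks (adjusted p = 7.84e-09). Dusp2, a phosphatase of ERK and p38 that lymphoid cells express, was lower in all 4 comparisons (-0.97, -1.20, -0.72 and -1.01), and so was the nuclear factor Csrnp1 (-0.83, -0.94, -0.63 and -0.56). Of 28 tested genes of the MAP kinase pathway and SRF cofactors, which act upstream, 10 rose and 3 fell at 6 h at 1 week, 5 and 5 at 24 h, 9 and 6 at 6 h at 8 weeks, and 11 and 8 at 24 h. The rises at 24 h were near the shares of all genes, 18.4% at 1 week and 38.3% at 8 weeks. So were the falls at 24 h at 1 week (17.6% of all genes) and at 6 h at 8 weeks (22.1%). With each array scaled to its median, 3 rose and 4 fell at 6 h at 1 week and 1 rose and 7 fell at 6 h at 8 weeks, and both list medians turned negative. Mapk13, a p38 kinase, rose in all 4 (0.93, 0.82, 0.52 and 0.67), and Map3k1 fell by 0.91 on the log2 scale at 24 h at 8 weeks (adjusted p = 3.68e-09).

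**Figure D4:**
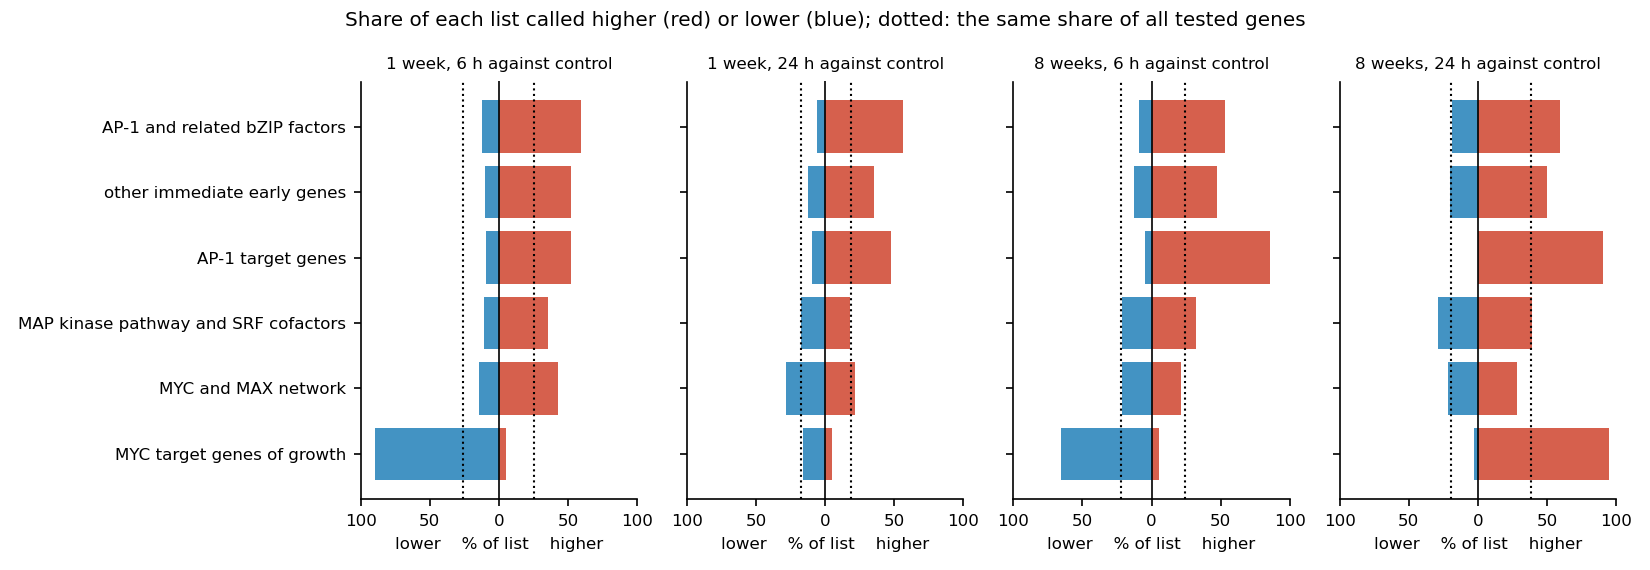
Share of each gene list called higher (red, to the right) or lower (blue, to the left) in the 4 comparisons with controls, with dotted lines at the same shares of all 11884 tested genes. MYC target genes lie mostly to the left at 6 h and to the right at 24 h at 8 weeks, and AP-1 target genes mostly to the right at 8 weeks.

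Genes known as AP-1 targets rose in 19 of 21 tested members at 24 h at 8 weeks and fell in 0, with a median of 0.89 beside 0.12 for all genes, of which 38.3% rose. Under normexp 10 rose at 24 h and 7 at 6 h at 8 weeks, and 3 at each time at 1 week. At 6 h at 8 weeks 18 rose and 1 fell (median 0.52). At 1 week 11 rose and 2 fell at 6 h (median 0.47), and 10 and 2 at 24 h (median 0.30). Ccl2, the chemokine that draws monocytes, was 4.20-fold its control at 6 h at 1 week and 8.01-fold and 8.66-fold at 6 h and 24 h at 8 weeks. Hmox1, the haem-degrading enzyme of macrophages, rose by 1.78 ± 0.09 at 24 h at 1 week and by 2.16 ± 0.09 at 24 h at 8 weeks. Cd69, a lymphocyte activation marker, fell in 3 of the comparisons (-0.92, -0.75 and -0.71), and Mt1, a metallothionein, fell by 0.32 at 6 h at 1 week (adjusted p = 0.00716). Of the list, Hmox1 is also among the macrophage markers and Mmp9 among the neutrophil markers used here. The age difference of the 24 h response was called for 12 of the 21, all more positive at 8 weeks. Of all tested genes 42.1% were called there and 28.5% in that direction.

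MYC target genes of growth, such as those of ribosome assembly and nucleotide synthesis, were mostly lower at 6 h at both ages and higher at 24 h at 8 weeks, but the counts depended on the background correction. Under normexp 19 fell at 6 h at 1 week, 1 fell at 6 h at 8 weeks and 4 rose at 24 h at 8 weeks, with medians of -0.65, -0.28 and 0.14. At 6 h at 1 week 34 of 38 fell and 2 rose, with a median of -0.71, where 26.3% of all genes fell. Apex1, a base-excision repair enzyme, fell by 1.12 on the log2 scale (adjusted p = 5.97e-09), and Bop1, of ribosome assembly, by 0.92 (adjusted p = 2.94e-08). At 24 h at 1 week 6 fell and 2 rose, with a median of -0.04. At 6 h at 8 weeks 25 fell and 2 rose (median -0.30), while Myc itself was at -0.06, and Ncl, nucleolin, fell by 0.52 (adjusted p = 3.39e-06). At 24 h at 8 weeks 36 rose and 1 fell, with a median of 0.55, while Myc was at 0.14. Ldha, of glycolysis, rose by 0.65 ± 0.06 (adjusted p = 1.94e-07) and Ccnd2, cyclin D2, by 1.32 ± 0.10 (adjusted p = 1.34e-08), and the 1 gene that fell was Tfrc, the transferrin receptor (-0.57 ± 0.15, adjusted p = 0.00394), which is also an erythroid marker here. Among controls 37 of 38 were lower at 8 weeks than at 1 week (median -0.55), where 37.5% of all genes were.

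Within the MYC and MAX network, Max, the partner, did not pass in any of the 4 comparisons (0.06, 0.27, 0.09 and 0.14). Mxd1, which competes with MYC for MAX, rose in all 4 (0.88, 0.81, 0.58 and 0.50), and Mycn fell at 1 week at 6 h and 24 h (-0.83 and -0.96). In all, 6 of 14 rose and 2 fell at 6 h at 1 week, 3 and 4 at 24 h, 3 and 3 at 6 h at 8 weeks, and 4 and 3 at 24 h. Those at 6 h at 8 weeks are near the shares of all genes, of which 23.9% rose and 22.1% fell. The rises at 24 h at 1 week (18.4% of all genes) and the falls at 24 h at 8 weeks (19.5%) are near them too. Heat shock genes, 2 of which are also in the MYC target list (Hspd1 and Hspe1), fell in 7 of 13 and rose in 1 at 6 h at 1 week, and rose in 9 and fell in 1 at 24 h at 8 weeks, beside 26.3% of all genes lower and 38.3% higher. Under quantile normalization 6 rose at 24 h at 8 weeks (median 0.29 in place of 0.55), and under normexp 0 did. At 24 h at 1 week 0 rose and 4 fell, and at 6 h at 8 weeks 6 rose and 2 fell. Hspd1, a mitochondrial chaperonin, was -0.99 ± 0.07 at 6 h at 1 week and 0.55 ± 0.07 at 24 h at 8 weeks.

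**Figure D5:**
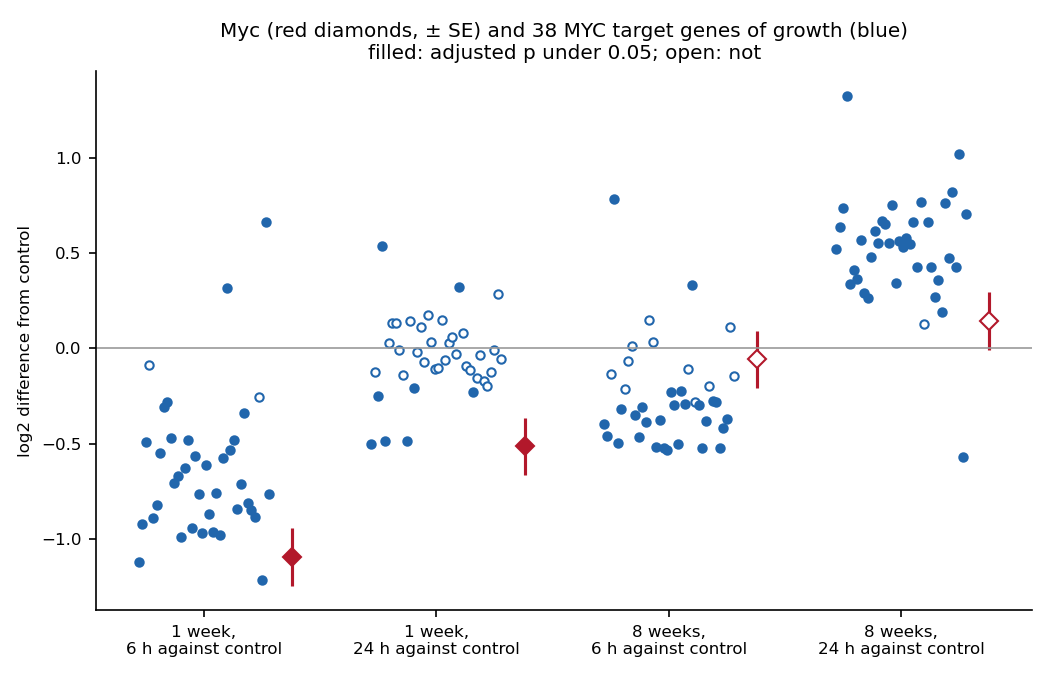
Log2 difference from control of Myc (red diamonds, ± SE) and of the 38 tested MYC target genes of growth (blue, 1 point per gene) in the 4 comparisons, filled where called. At 6 h at 1 week both Myc and 34 targets were called lower, and at 24 h at 8 weeks 36 targets were called higher with Myc not called.

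Markers of marrow cell types moved with these results, and their part in them was not tested. Resident macrophage genes were called higher in 17 of 17 at 24 h at 8 weeks (median 1.40), and their summed level rose from 6.35 to 6.58 in the 3 controls to 7.99 to 8.13. The differences of Fos, Junb, Egr1 and Maff from control were also largest there among the 4 comparisons. In the same list 15 of 17 rose at 6 h at 8 weeks and at 24 h at 1 week, and 13 fell at 6 h at 1 week, where the summed level was 5.38 to 5.48 against 5.65 to 5.80. Stromal and osteoblast genes rose in 15 of 16 at 24 h at 8 weeks (summed level 7.20 to 7.40 against 5.23 to 5.70). Between controls 15 of 16 were lower at 8 weeks than at 1 week (7.88 to 8.39 at 1 week), where 37.5% of all genes were lower. Ier3 was also lower in the 8-week controls, as were 8 of 8 megakaryocyte, 9 of 10 endothelial and 12 of 14 erythroid genes. All 7 cartilage genes tested were lower too. The summed level of the 11 cartilage genes was 1.22, 1.70 and 8.31 in the 1-week controls and -1.70 to -0.87 in the 8-week controls. A gene was tested if any 1 group was bright, so this count can favour genes that were high at 1 week. Early granulocyte genes rose in 7 of 7 at 24 h at 8 weeks (9.74 to 9.95 against 9.05 to 9.11) and fell in 6 of 7 at 6 h at 1 week (8.09 to 8.24 against 8.45 to 8.62). At 6 h at 8 weeks 1 of 7 early granulocyte genes rose and 0 fell, where 25 MYC targets fell. In 8-week controls 7 of 7 were higher than in 1-week controls (27.4% of all genes were), where 37 MYC targets were lower. At 6 h at both ages and at 24 h at 8 weeks, erythroid genes were mostly called opposite to the MYC targets. They were higher in 13 of 14 at 6 h at 1 week and 11 at 6 h at 8 weeks, and lower in 10 at 24 h at 8 weeks. Their summed level at 24 h at 8 weeks was not lower, at 9.514 to 9.748 against 9.48 to 9.498 in controls. Between controls erythroid genes and MYC targets moved the same way, with 12 of 14 erythroid genes and 37 MYC targets lower at 8 weeks. Late neutrophil genes rose in 14 or 15 of 15 in each of the 4 comparisons, and B-cell precursor genes fell in 12 or 13 of 13, their summed level dropping from 8.41 to 8.58 in the 1-week controls to 7.0 to 7.11 at 6 h, where Myc fell. At 8 weeks they dropped from 8.55 to 8.67 to 7.0 to 7.30 at 6 h, where Myc was not called. In the macrophage, stromal, neutrophil and early granulocyte lists 0 genes were below background on every array.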

How the data were processed

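Total RNA of bone marrow was labelled with Cy3 and hybridised to 18 one-colour Agilent arrays, 1 sample each, per the labels' protocols. The authors deposited scanner output in which spot intensity is background-subtracted and spatially detrended, per the file headers. Agilent Feature Extraction is named in version 11.5.1 per the submitters' processing notes and 9.5.1.1 per the file headers. The deposited files also hold other values, flags of spots above background, saturated or uneven, per the file headers. A deposited value table holds log2 values of the same arrays, which matched the scanner values after each array's 75th percentile and each probe's median were removed (r of at least 0.9999), and served as an alternative.

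Here log2 intensity minus each array's 75th percentile was used. Control and flagged spots (77 to 123 an array) were left out, and spots of a probe averaged. The probe with the highest mean signal stood for each gene, and a gene was tested if any 1 group had all 3 of its arrays flagged as well above background. The array number limits the precision. All 6 groups entered 1 fit with limma 3.58.1 (lmFit, then eBayes with intensity trend, R 4.3.3, 12 residual and 4.33 prior degrees of freedom), two-sided, with Benjamini-Hochberg adjustment over all 11884 genes. Age effects were interaction contrasts. In simulated data for 6 h at 1 week (11884 genes), 100 genes were raised by 0.5 and 100 by 1 on the log2 scale, with independent noise. Of these, 64% and 94% were recovered, with 3 false calls. In the data 6161 genes were called in that comparison, so these rates do not carry over to it. Summed marker levels are log2 of the summed linear signal of a list's genes.

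The genes described and all lists were chosen with earlier results of these data known. Named pathway genes are the 2 with the smallest adjusted p per list, comparison with control and direction, plus Mdm2, Cdkn1a and Max, and for likeness the 3 genes with the highest r. A gene so named in 1 comparison may be given in others. Some genes the rule names are not reported here. Alternatives were other scalings, background corrections, probes, filters, slide and replicate blocks and leaving out each array. The planned normexp correction of the mean signal was run on the median signal. No sample was dropped or imputed in the main fit.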

Additional observations from a re-analysis of the deposited data

Results flagged for a closer look

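The response to irradiation differed between 1 and 8 weeks of age, by the interaction test of limma adjusted over all genes, for 2 of the 10 genes at 6 h and 7 at 24 h, beside 18.6% and 42.1% of all tested genes. Each value is the log2 response at 8 weeks minus that at 1 week. At 6 h it was 1.04 for Myc, which fell at 1 week, and 0.36 for Junb, which was called higher at 8 weeks. At 24 h it was 2.13 for Fos, 1.08 for Junb, 0.83 for Egr1, 0.80 for Ier3, 0.66 for Myc, 0.42 for Ier2 and 0.39 for Jun. Fos, Junb, Ier2 and Ier3 were called higher than control at both ages at 24 h and Egr1 at 8 weeks alone, while Myc and Jun were called lower at 1 week and not called at 8 weeks. The calls of Junb at 6 h and of Myc and Jun at 24 h ended when certain single arrays were left out. Under normexp only the calls of Fos, Egr1 and Ier3 at 24 h remained. Groups of 3 arrays were not searched for single outlying arrays.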

How the results depend on the processing

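Counts of the 10 genes called were within 1.5 times the reported count, except as follows. Under normexp they were 2 at 6 h and 0 at 24 h at 1 week, 2 at 6 h at 8 weeks, 1 between controls, 0 and 3 for the age differences at 6 h and 24 h, and 1 and 3 from 6 h to 24 h at 1 and 8 weeks. Under normexp 19 MYC targets fell at 6 h at 1 week and 1 at 6 h at 8 weeks, 4 rose at 24 h at 8 weeks, and 10 AP-1 targets rose there. With array median scaling 3 genes were called at 6 h at each age. With slide as a fixed block 1 was called for the age difference at 6 h. Leaving out 1 array gave 4 to 7 at 24 h at 1 week, with 4 without control replicate 3, and 1 to 3 for the age difference at 6 h.

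Over all genes, normexp gave 1286, 671, 759 and 3514 calls in the comparisons with controls, where 6161, 4279, 5469 and 6870 were reported, and 2804, 133, 981, 417 and 1857 in the others, in the order controls, age differences at 6 h and 24 h, and 6 h to 24 h at 1 and 8 weeks. Its share of calls that were higher was 83.5% and 50.2% for the age difference at 6 h and 6 h to 24 h at 8 weeks. Array median scaling gave 2615, 943 and 3226 calls at 24 h at 1 week and for the age differences at 6 h and 24 h, and slide as a fixed block 1370 for that at 6 h. It shifted the median gene at 6 h at 1 week to -0.19, where 22.8% of calls were higher, and gave 41.2%, 52.7%, 89.8%, 87.0% and 82.5% at 6 h at 8 weeks, between controls, for the age difference at 6 h, and from 6 h to 24 h at 1 and 8 weeks. The cause of these shifts was not tested.

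Deviations from the group mean in same-numbered arrays of different groups had r from -0.27 to 0.32 (45 pairs, median -0.0145, 9 over 0.1). Of the 18 arrays, 9 correlated best with their own number. The numbers partly follow the slides, so this check cannot decide whether they pair arrays. With the replicate number as a block 6, 7, 5 and 7 genes were called in the comparisons with controls, 4 between controls and 2 and 7 for the age differences, and Fos at 6 h at 1 week passed (adjusted p = 0.0454). The cause was not tested for any changed value here.

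The sign turned in 47 of the single-gene values, of which 1 was called as reported, Ier2 in the age difference at 24 h. Under normexp the turned values were 0.096 for Fosb at 6 h at 1 week, -0.038 for Jund at 24 h at 1 week, 0.35 for Jun at 24 h at 8 weeks, -0.30 for Jund at 24 h at 8 weeks, -0.21 for Myc at 24 h at 8 weeks, -0.019 for Junb between controls, -0.079 for Ier2 in the age difference of the 6 h response, 0.097 for Jund in the age difference of the 6 h response, 0.42 for Fosb in the age difference of the 24 h response, -0.024 for Ier2 in the age difference of the 24 h response, -0.26 for Jund in the age difference of the 24 h response, 0.21 for Jun from 6 h to 24 h at 8 weeks and -0.15 for Myc from 6 h to 24 h at 8 weeks. Under array median scaling the turned values were -0.082 for Junb at 6 h at 1 week, 0.024 for Jund between controls, 0.026 for Jun in the age difference of the 6 h response, 0.0070 for Jund in the age difference of the 6 h response and 0.084 for Jund from 6 h to 24 h at 8 weeks. Under quantile normalization the turned values were -0.011 for Jund at 24 h at 1 week, -0.11 for Jund at 24 h at 8 weeks, 0.072 for Jund between controls, -0.011 for Ier2 in the age difference of the 6 h response and -0.097 for Jund in the age difference of the 24 h response. With slide as a fixed block the turned values were -0.099 for Fos at 6 h at 8 weeks, -0.079 for Ier2 in the age difference of the 6 h response, 0.0013 for Fosb in the age difference of the 24 h response and -0.17 for Fos from 6 h to 24 h at 1 week. With a gene's probes averaged the turned value was 0.014 for Myc at 6 h at 8 weeks. On another probe the turned values were 0.18 for Myc at 6 h at 8 weeks and -0.033 for Junb between controls. With the percentile taken over bright probes the turned value was -0.0054 for Ier2 in the age difference of the 6 h response. With slide as a random block the turned value was -0.013 for Ier2 in the age difference of the 6 h response. Leaving out single arrays, values of uncalled results ranged across 0, from -0.043 to 0.072 for Jund at 24 h at 1 week, -0.12 to 0.021 for Jun at 24 h at 8 weeks, -0.081 to 0.073 for Ier2 and -0.13 to 0.0046 for Jun in the age difference of the 6 h response, -0.017 to 0.39 for Fos and -0.028 to 0.11 for Ier2 from 6 h to 24 h at 1 week, -0.057 to 0.28 for Fosb and -0.083 to 0.038 for Jund from 6 h to 24 h at 8 weeks.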
